A study of Mus musculus with 15 samples.

Results

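The sites described here are crosslinked nucleotides on the mitochondrial chromosome (chrM), taken from 6 lists made by iCLIP, a method that maps where a protein was crosslinked to RNA by UV light, to the nucleotide. Every listed site on chrM was taken, on both strands, and was assigned by strand to an rRNA, tRNA or mRNA gene, to the strand opposite a gene, to a gap between genes or to the control region. The 6 lists held 1033 such sites out of 162273 sites in all. They lay at 574 distinct positions and carried 3811 unique cDNAs.

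The lists came from mouse bone marrow-derived macrophages of strain C57BL/6 that lacked endogenous tristetraprolin (TTP, encoded by Zfp36) and had been immortalised with MYC and RAS oncogenes. One line expressed GFP-TTP and the other GFP-TTP-AA, in which the serines targeted by the kinase MK2 were replaced (S52A and S178A). Both were driven by a doxycycline-inducible vector that carried the TTP coding sequence only, and both lines were sorted for GFP. All 6 groups, the unstimulated ones included, lacked endogenous TTP and received doxycycline for 6 h. Lipopolysaccharide (LPS, 1 μg/ml) was given for 0, 1 or 4 h. The lists sum 2 libraries for TTP without LPS, 2 for TTP-AA without LPS, 4 for TTP at 1 h, 3 for TTP-AA at 1 h, 2 for TTP after 4 h and 2 for TTP-AA after 4 h. Each group is thus a single list without a replicate error, so the intervals below cover counting error only, and no comparison between conditions was tested. A list holds only positions that passed a false-discovery rate (FDR) of 0.05, so an absent position means that none passed and not that no cDNA was made. A pull-down from cells with GFP alone was not analysed here, so the level of background crosslinking is unknown. The lists record crosslinks rather than RNA levels, and macrophage markers were therefore not checked.

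The mitochondrial genome encodes 2 rRNAs, 22 tRNAs and 13 mRNAs of the respiratory chain. Both strands are transcribed as long precursors, which are cut mainly at the tRNAs that punctuate them, and the rRNAs are by far the most abundant stable products. The mature RNAs stay in the mitochondrial matrix, whereas TTP is known as a cytoplasmic and nuclear protein that binds AU-rich elements in 3′UTRs of cytokine mRNAs. The 12S rRNA (mt-Rnr1) and the 16S rRNA (mt-Rnr2) form the cores of the small and the large mitochondrial ribosomal subunit.

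The sequences around the leading rRNA positions are shown first, because most of the mitochondrial cDNAs lay at a small number of places in these RNAs. They were read from GENCODE transcripts on GRCm38, run 5′ to 3′, and cover 20 nt on each side of the crosslinked nucleotide, which is the capital.
mt-Rnr1 nt 269, chrM:318-358, plus strand: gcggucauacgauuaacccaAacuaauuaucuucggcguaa
mt-Rnr1 nt 395, chrM:444-484, plus strand: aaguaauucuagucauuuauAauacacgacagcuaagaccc
mt-Rnr2 nt 228, chrM:1301-1341, plus strand: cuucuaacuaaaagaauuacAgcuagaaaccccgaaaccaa
mt-Rnr2 nt 359, chrM:1432-1472, plus strand: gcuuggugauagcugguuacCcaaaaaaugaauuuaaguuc
mt-Rnr2 nt 760, chrM:1833-1873, plus strand: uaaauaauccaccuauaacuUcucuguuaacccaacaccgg
mt-Rnr2 nt 1554, chrM:2627-2667, plus strand: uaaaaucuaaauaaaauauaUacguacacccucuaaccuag
The tRNAs below are those with the most cDNAs, shown whole because their crosslinks lay mainly at the anticodon, or 8 nt before it in mt-Tl1. Capitals mark the anticodon.
mt-Tl1, chrM:2676-2750, plus strand: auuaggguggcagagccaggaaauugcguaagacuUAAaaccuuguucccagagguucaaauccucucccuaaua
mt-Tm, chrM:3845-3913, plus strand: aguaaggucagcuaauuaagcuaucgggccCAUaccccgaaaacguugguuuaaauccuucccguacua
mt-Tf, chrM:1-68, plus strand: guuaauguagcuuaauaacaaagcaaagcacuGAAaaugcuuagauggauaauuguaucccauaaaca
mt-Tp, chrM:15356-15422, minus strand: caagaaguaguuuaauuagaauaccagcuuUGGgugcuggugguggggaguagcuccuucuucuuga
mt-Tc, chrM:5192-5257, minus strand: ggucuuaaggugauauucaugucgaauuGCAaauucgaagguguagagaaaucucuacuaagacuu
mt-Ti, chrM:3706-3774, plus strand: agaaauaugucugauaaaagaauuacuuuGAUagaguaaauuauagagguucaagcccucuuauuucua

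Mitochondrial RNA was a minor part of each list, and its share was lower with TTP-AA than with TTP at each time. Without LPS, 402 of 33587 cDNAs in the TTP list were mitochondrial, or 1.20% (95% Wilson interval 1.09 to 1.32). In the TTP-AA list without LPS the count was 322 of 32617, or 0.987% (0.886 to 1.10). At 1 h the TTP list held 1481 of 99263, or 1.49% (1.42 to 1.57). The TTP-AA list at 1 h held 1332 of 174397, or 0.764% (0.724 to 0.806). These 2 lists had similar numbers of mitochondrial cDNAs in lists of unequal size. After 4 h the counts were 197 of 29060 for TTP, or 0.678% (0.590 to 0.779), and 77 of 19167 for TTP-AA, or 0.402% (0.322 to 0.502). The ratio of TTP-AA to TTP was 0.82 without LPS (exact 95% interval 0.71 to 0.957), 0.51 at 1 h (0.475 to 0.552) and 0.59 after 4 h (0.449 to 0.775).

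**Figure D1:**
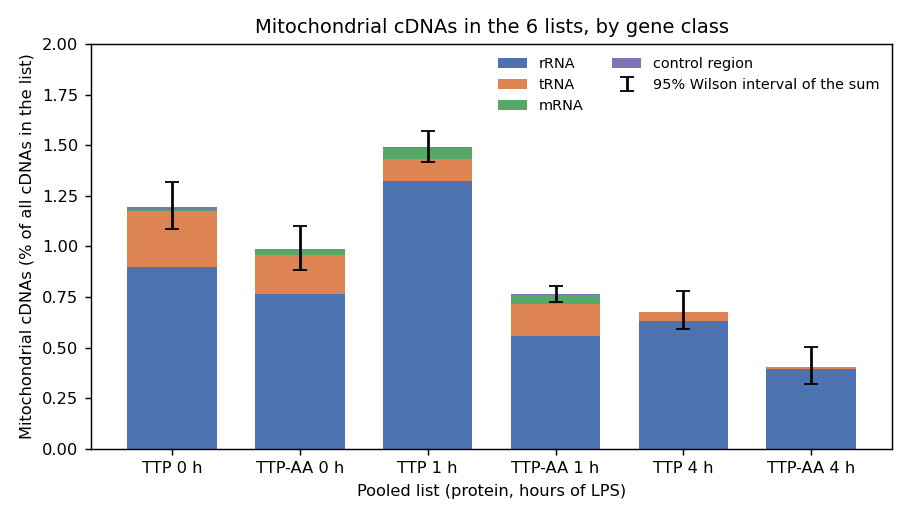
Mitochondrial cDNAs as a percentage of all cDNAs in each of the 6 lists (vertical axis), with 1 bar per protein and hour of LPS, stacked by gene class; whiskers are 95% Wilson intervals of the sum. The share was highest for TTP at 1 h (1.49%) and lowest for TTP-AA after 4 h (0.402%), and rRNA was the main class in each list.

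The 1 h ratio depended on what it was measured against. Sites in 3′UTRs carried 53.7% of the cDNAs of the TTP-AA list at 1 h and 9.63% of those of the TTP list. When 3′UTR cDNAs were left out of both totals, a denominator chosen after the data were seen, mitochondrial RNA made up 1.65% of the rest with TTP and likewise 1.65% with TTP-AA. The ratio was then 1.00 (0.926 to 1.08). Without LPS and after 4 h the same denominator gave 0.88 (0.757 to 1.02) and 0.61 (0.459 to 0.792). The cytoplasmic rRNA locus on chromosome 17, annotated as Gm26917 and Gm42418, held many more cDNAs than chrM and was also a smaller part of the TTP-AA list. It made up 14.7% and 11.2% of the TTP and TTP-AA lists without LPS, 28.5% and 10.4% at 1 h, and 32.0% and 13% after 4 h. Its ratio of TTP-AA to TTP was 0.76 without LPS, 0.37 at 1 h (0.359 to 0.373) and 0.41 after 4 h. The intervals for chrM and for this locus did not overlap at 1 h or 4 h. At 1 h and 4 h the mitochondrial share was the less different of the pair.

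The share within each protein also differed between times. For TTP, the 1 h share was 1.25 times the 0 h share (1.12 to 1.40) and the 4 h share was 0.45 times the 1 h share (0.390 to 0.528). For TTP-AA, the corresponding ratios were 0.77 (0.684 to 0.877) and 0.53 (0.412 to 0.662). With 3′UTR cDNAs left out of the totals, the TTP ratios were 1.20 (1.07 to 1.34) and 0.42 (0.363 to 0.492). The TTP-AA ratio of 1 h to 0 h then turned to 1.36 (1.20 to 1.54), and that of 4 h to 1 h fell to 0.26 (0.202 to 0.324). The direction from 0 to 1 h with TTP-AA thus depended on the denominator. Mitochondrial sites carried 2.20 to 4.81 cDNAs each on average, more than all sites of the same list in 5 lists. In the TTP list after 4 h they carried fewer, 2.32 against 3.61. Between 35.4% and 54.3% of them rested on 1 cDNA.

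Nearly all of these cDNAs read the transcribed strand of an annotated gene. Of the 1033 sites, 1025 lay in the sense orientation of a gene and 8 in the control region, while 0 lay antisense to a gene or in a gap. The rRNAs held 75.1% (TTP) and 77.6% (TTP-AA) of the mitochondrial cDNAs without LPS. At 1 h they held 88.8% for TTP (87.1 to 90.3) and 72.8% for TTP-AA (70.4 to 75.1), which is a change by -16.0 points (-18.8 to -13.1). After 4 h they held 93.4% and 98.7%. The tRNAs were the second class with 22.9% for TTP and 19.3% for TTP-AA without LPS, 7.02% and 20.6% at 1 h, and 6.60% and 1.30% after 4 h. The mRNAs had 0.746% and 3.11% without LPS, 3.78% and 6.23% at 1 h, and no listed site after 4 h in either list. Per 100 nt of gene, the 1 h TTP list held 51.8 cDNAs in rRNA, 6.93 in tRNA and 0.491 in mRNA. The 1 h TTP-AA list held 38.2, 18.3 and 0.728 per 100 nt.

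The 16S rRNA was the leading gene, with 2141 cDNAs over all lists, or 56.2% of the mitochondrial total, and the 12S rRNA followed with 956 cDNAs, or 25.1%. The 16S rRNA (ENSMUSG00000064339.1, chrM:1094-2675, plus strand) had 167 cDNAs for TTP and 156 for TTP-AA without LPS, 867 and 705 at 1 h, and 170 and 76 after 4 h. The 12S rRNA (ENSMUSG00000064337.1, chrM:70-1024, plus strand) had 135 and 94 without LPS, 448 and 265 at 1 h, and 14 and 0 after 4 h. The 12S part of the rRNA cDNAs was therefore 44.7% (39.2 to 50.3) and 37.6% (31.8 to 43.7) without LPS, 34.1% (31.6 to 36.7) and 27.3% (24.6 to 30.2) at 1 h, and 7.61% (4.59 to 12.4) and 0% after 4 h. It was lower at each later time in both proteins. As a share of the list, the 12S rRNA of the TTP list after 4 h stood at 0.107 times its 1 h value (0.0579 to 0.181), while the 16S rRNA stood at 0.67 times (0.565 to 0.790). For TTP-AA the 16S ratio of 4 h to 1 h was 0.98 (0.764 to 1.24), and no 12S position was listed after 4 h. This 16S ratio rested on the denominator, since 3′UTR sites held 53.7% of the TTP-AA list at 1 h and 5.22% after 4 h. Outside 3′UTRs it was 0.48 (0.373 to 0.608) for TTP-AA and 0.62 (0.527 to 0.737) for TTP.

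Crosslinks touched only parts of each rRNA. Listed positions covered 118 of the 955 nt of the 12S rRNA, all between nt 220 and 931, and 270 of the 1582 nt of the 16S rRNA, all between nt 213 and 1572. Both rRNAs thus lacked listed positions in their first 200 nt in all 6 lists. Joining positions at most 15 nt apart gave 44 clusters over the whole chromosome, and the 4 largest held 59.5% of the cDNAs. The largest lay at nt 213 to 387 of the 16S rRNA, had 983 cDNAs and was the only cluster with sites in all 6 lists. The others were nt 256 to 321 of the 12S rRNA with 586 cDNAs, nt 744 to 777 of the 16S rRNA with 385, and nt 1527 to 1572 of the 16S rRNA with 312. The last of these ended 10 nt before the 3′ end of the gene.

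**Figure D2:**
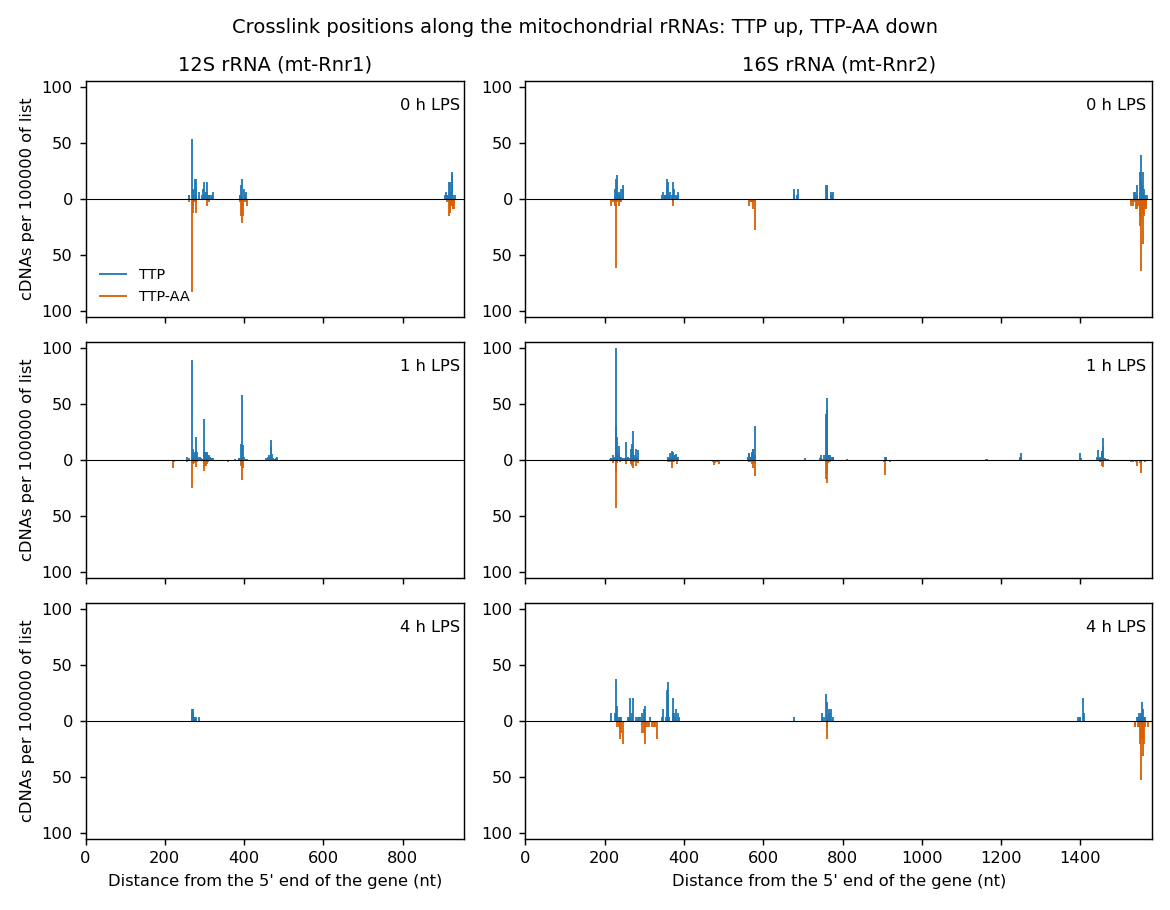
cDNAs per 100000 cDNAs of the list (vertical axis) at each crosslinked nucleotide of the 12S and 16S rRNA, by distance from the 5′ end of the gene in nt (horizontal axis), with TTP drawn upwards and TTP-AA downwards for 0, 1 and 4 h of LPS. A few places carried most cDNAs, but the leading place differed after 4 h. It was nt 213 to 387 of the 16S rRNA for TTP (55.8% of its mitochondrial cDNAs) and nt 1527 to 1572 for TTP-AA (55.8%). The 16S 3′ end had no listed site for TTP at 1 h, and the 12S rRNA had none for TTP-AA after 4 h.

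Single nucleotides stood out within these clusters. The A at nt 228 of the 16S rRNA (chrM:1321) had 6, 20, 99, 75, 11 and 0 cDNAs in the order TTP 0 h, TTP-AA 0 h, TTP 1 h, TTP-AA 1 h, TTP 4 h and TTP-AA 4 h, and it led both 1 h lists and the TTP list after 4 h. The A at nt 269 of the 12S rRNA (chrM:338) had 18, 27, 88, 44, 3 and 0 in the same order. It led the TTP-AA list without LPS and was second in both 1 h lists. The A at nt 395 of the 12S rRNA (chrM:464) had 6, 7, 57, 32, 0 and 0. In the 16S rRNA, the U at nt 760 (chrM:1853) had 3, 0, 55, 36, 5 and 3. The U at nt 1554 of the same RNA (chrM:2647) had 13, 21, 0, 20, 1 and 10, and led the TTP-AA list after 4 h. A run of C at nt 358 to 360 of the 16S rRNA was among the 5 leading places of the TTP list after 4 h, with 8, 10 and 7 cDNAs. The remaining leading positions were nt 759 and 762 of the 16S rRNA (81 and 69 cDNAs over all lists), nt 1550 and 1558 (21 and 31), nt 246 and 302 (9 and 8), nt 925 of the 12S rRNA (9) and 1 position each in mt-Tl1 and mt-Tm. The 5 leading positions carried between 16.7% (TTP-AA, 1 h) and 36.4% (TTP-AA, 4 h) of the mitochondrial cDNAs of a list.

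The 3′ end of the 16S rRNA carried a larger share of the list with TTP-AA than with TTP, while the other 3 of the 4 largest clusters had a smaller one wherever both lists had sites. Of the 16S cDNAs, 62 of 167 (37.1%, 30.2 to 44.7) lay at nt 1527 to 1572 for TTP and 102 of 156 (65.4%, 57.6 to 72.4) for TTP-AA without LPS. At 1 h the counts were 0 of 867 for TTP and 85 of 705 (12.1%, 9.86 to 14.7) for TTP-AA. After 4 h they were 20 of 170 (11.8%, 7.75 to 17.5) and 43 of 76 (56.6%, 45.4 to 67.1). The share was higher in TTP-AA at each time, and the intervals of the pairs with sites did not overlap. As a share of the whole list, the ratio of TTP-AA to TTP here was 1.69 without LPS (1.22 to 2.36) and 3.26 after 4 h (1.88 to 5.85). By contrast, the cluster at nt 213 to 387 of the same RNA had ratios of 0.46 without LPS (0.298 to 0.699), 0.38 at 1 h (0.323 to 0.437) and 0.40 after 4 h (0.256 to 0.606). The cluster at nt 256 to 321 of the 12S rRNA gave 0.57 (0.383 to 0.828) without LPS and 0.34 (0.275 to 0.407) at 1 h, and the one at nt 744 to 777 of the 16S rRNA gave 0.35 (0.277 to 0.437) at 1 h and 0.22 (0.0552 to 0.619) after 4 h. The next rRNA clusters in size were mixed. Nt 377 to 409 of the 12S rRNA gave 1.32 without LPS (0.679 to 2.59) and 0.39 at 1 h (0.281 to 0.529). Nt 560 to 579 of the 16S rRNA had 20 cDNAs with TTP-AA and no listed site with TTP without LPS, and gave 0.43 at 1 h (0.319 to 0.585). Over the totals without 3′UTR cDNAs, each ratio of TTP-AA to TTP at 1 h, here and for the genes below, is larger by a factor of 1.95. These clusters were drawn after the sites were seen, and library differences, the protein and the FDR step cannot be told apart from single pooled lists.

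**Figure D3:**
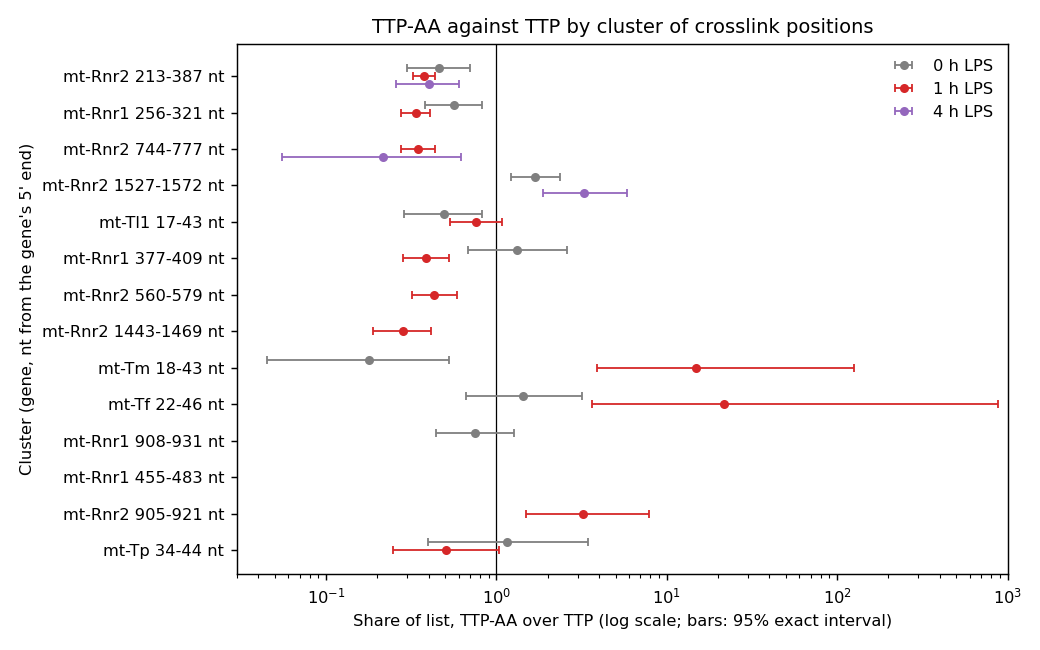
Share of the list in TTP-AA divided by that in TTP (horizontal axis, log scale) for each cluster with at least 50 cDNAs over all lists, named by gene and distance from its 5′ end in nt, at 0, 1 and 4 h of LPS; bars are exact 95% intervals, and a time at which either list had no site is left out. Most rRNA clusters lay below 1, whereas 3 lay above it at some time: nt 1527 to 1572 of mt-Rnr2 without LPS (1.69) and after 4 h (3.26), nt 905 to 921 of mt-Rnr2 at 1 h (3.20) and nt 377 to 409 of mt-Rnr1 without LPS (1.32, with an interval that spans 1).

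Other clusters were listed at 1 time or in 1 protein. The cluster at nt 908 to 931 of the 12S rRNA had 37 cDNAs for TTP and 27 for TTP-AA without LPS and no listed site later. The cluster at nt 1443 to 1469 of the 16S rRNA had 81 and 40 at 1 h and none at the other times. At nt 455 to 483 of the 12S rRNA the TTP list at 1 h held 63 cDNAs, and no other list held any. At nt 473 to 491 of the 16S rRNA the TTP-AA list at 1 h held 38, again alone. Nt 905 to 921 of the 16S rRNA at 1 h had 45 cDNAs with TTP-AA against 8 with TTP, a ratio of 3.20 (1.49 to 7.86). The headers of both 1 h lists carried an additional mark for the handling of regions, and its part in these differences was not tested.

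Of the 22 tRNAs, 10 had listed cDNAs, 546 in all, and 12 had none. The leucine tRNA mt-Tl1 (ENSMUSG00000064340.1), which directly follows the 16S rRNA in the precursor, led with 48 and 23 cDNAs for TTP and TTP-AA without LPS, 60 and 80 at 1 h, and 13 and 0 after 4 h. The methionine tRNA mt-Tm (ENSMUSG00000064344.1), which also initiates translation, had 23 and 4 without LPS, 2 and 52 at 1 h, and 0 and 1 after 4 h. Its ratio of TTP-AA to TTP was 0.18 without LPS (0.0450 to 0.524) and 14.8 at 1 h (3.90 to 125), so its direction turned between these times. The phenylalanine tRNA mt-Tf (ENSMUSG00000064336.1) had 13 and 18 without LPS and 1 and 38 at 1 h, a 1 h ratio of 21.6 (3.65 to 876). With TTP counts under 3 set to 3, these 1 h ratios were 9.87 for mt-Tm and 7.21 for mt-Tf. Proline tRNA mt-Tp, read from the minus strand, had 8 and 9 without LPS and 19 and 17 at 1 h. Cysteine tRNA mt-Tc, also on the minus strand, had 7 and 25 at 1 h, and isoleucine tRNA mt-Ti had 0 and 8 without LPS and 4 and 14 at 1 h. Threonine tRNA mt-Tt and the second leucine tRNA mt-Tl2 had 24 and 18 cDNAs, all in the TTP-AA list at 1 h. Valine tRNA mt-Tv, encoded between the rRNAs, and alanine tRNA mt-Ta stayed below 10 cDNAs in each list. Over all tRNAs the ratio of TTP-AA to TTP was 0.69 without LPS (0.495 to 0.968), 1.50 at 1 h (1.19 to 1.90) and 0.12 after 4 h (0.00274 to 0.776), the last with 1 cDNA against 13.

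Within the tRNAs the crosslinks lay around the anticodon, a pattern described after the positions were seen. The 7 nt from 2 nt before to 4 nt after the first anticodon base were taken as the loop. They held 292 of the 546 tRNA cDNAs, or 53.5% (49.3 to 57.6), and make up 9.89% of the length of the crosslinked tRNAs weighted by cDNAs. The peak lay inside this window in 7 of the 8 tRNAs with at least 10 cDNAs. It was the third anticodon base (nt 33) in mt-Tm with 43 cDNAs, the base after the anticodon in mt-Tf (nt 36, 38 cDNAs), mt-Tp (nt 34, 42 cDNAs) and mt-Tl2 (nt 36, 17 cDNAs), and the middle anticodon base in mt-Tc (nt 30, 13 cDNAs). In mt-Ti it was the first anticodon base (nt 30, 11 cDNAs) and in mt-Tt the first loop base (nt 29, 9 cDNAs). The exception was mt-Tl1, where the G at nt 28, 8 nt before the anticodon, held 126 of 224 cDNAs: 34, 13, 37, 36, 6 and 0 in the order of lists given above. Only 18.8% of the mt-Tl1 cDNAs lay in its loop. Without mt-Tl1 the loop share was 77.6% (72.8 to 81.8) over all lists, with 81.8% for TTP and 66.7% for TTP-AA without LPS, and 65.9% and 82.0% at 1 h. From the peak to the 3′ end of the tRNA there were 32 to 47 nt. The crosslink is the nucleotide before the read, so positions near the 3′ end leave little room for a read within the tRNA. Such positions still count in the 9.89%, which is therefore no measure of what could be listed. A baseline without them was not tested.

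**Figure D4:**
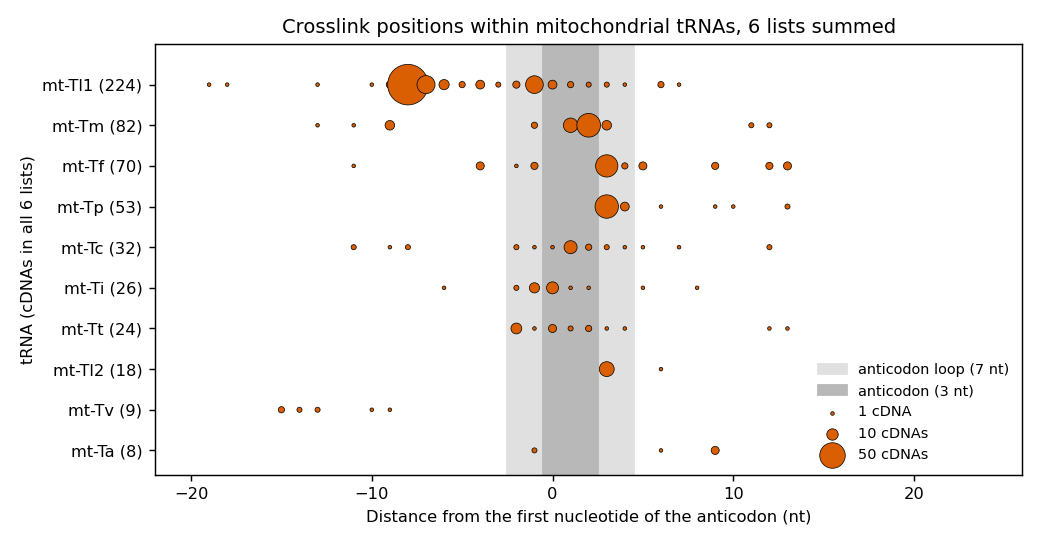
Crosslinked positions in the 10 tRNAs with listed cDNAs, by distance in nt from the first anticodon base (horizontal axis), summed over the 6 lists; circle area is the number of cDNAs, the pale band is the 7-nt loop and the dark band the 3-nt anticodon. Most circles lie in or next to the band, and the largest, with 126 cDNAs, lies 8 nt before the anticodon of mt-Tl1.

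The mRNAs had 152 cDNAs over all lists, spread over 6 of 13 genes, and no position had more than 4 cDNAs in a list. Cytochrome c oxidase subunit I (mt-Co1) at 1 h had 37 cDNAs with TTP-AA against 23 with TTP, a ratio of 0.92 (0.530 to 1.61), and none at other times. NADH dehydrogenase subunit 4 (mt-Nd4) had 3 and 4 without LPS and 11 and 10 at 1 h. Subunit 2 (mt-Nd2) had 0 and 6 without LPS and 0 and 20 at 1 h. Subunit 5 (mt-Nd5) had 16 cDNAs in the TTP-AA list at 1 h and none elsewhere, while subunit 1 (mt-Nd1) and cytochrome b (mt-Cytb) had 10 and 12 in the TTP list at 1 h and none elsewhere. The first 50 nt of the gene held all 12 cDNAs of mt-Cytb, 14 of the 16 of mt-Nd5 and 10 of the 26 of mt-Nd2. The 28 cDNAs of mt-Nd4 all lay at nt 1220 to 1340, near its 3′ end.

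The 7 mRNAs without listed cDNAs were mt-Co2, mt-Co3, mt-Atp6, mt-Atp8, mt-Nd3, mt-Nd4l and mt-Nd6. For 5 of them, mt-Co2, mt-Co3, mt-Atp6, mt-Nd3 and mt-Nd4l, between 98.1% and 100% of the 30-nt stretches also occurred in annotated nuclear transcripts, mainly pseudogenes on chromosome 1 such as Gm28661, Gm28437 and Gm10925. The authors mapped unique reads, so the absence of these 5 mRNAs cannot be told apart from reads lost to these copies. In mt-Co1 64.8% and in mt-Nd4 62.8% of the stretches were copied. Only 2 of the 1033 sites, 1 in mt-Co1 and 1 in mt-Cytb, were followed by a copied stretch. Unique mapping drops reads in copied stretches, so such sites could hardly be listed. Only 8% of mt-Atp8, 8.37% of mt-Nd6 and 0% of mt-Nd1 was copied. The rRNAs were copied over 1.77% and the tRNAs over 0.579% of their stretches. Of the annotated nuclear genes that share a stretch with chrM, the multi-exon gene Cep295 had 9 cDNAs with TTP and 12 with TTP-AA at 1 h. These were counted over the whole gene, and the other times had none. The other 23 genes had 0 cDNAs in all 6 lists. Unique mapping drops reads in the shared stretches, so this does not show that no read came from these genes.

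**Figure D5:**
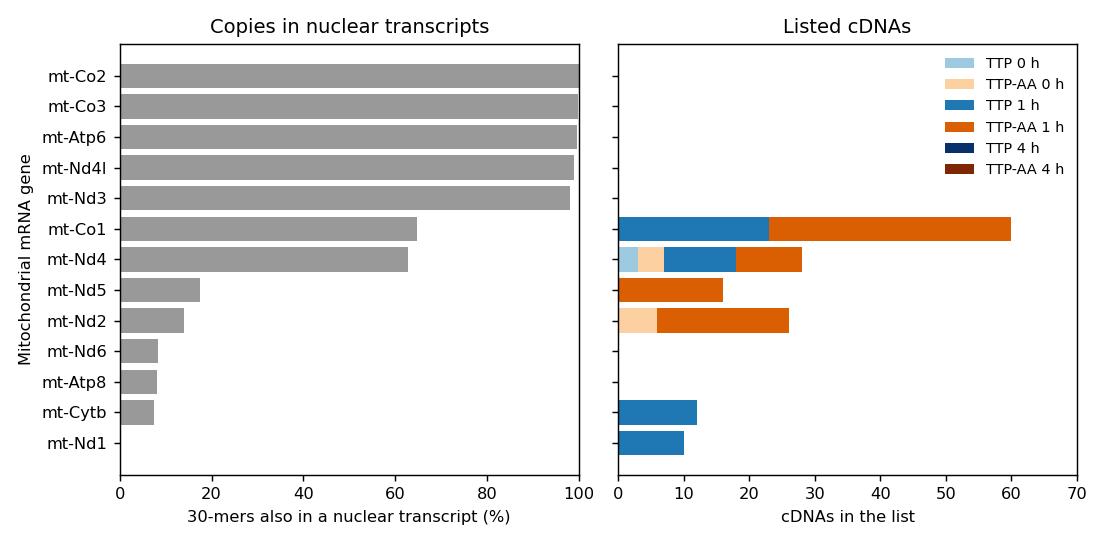
Left, percentage of the 30-nt stretches of each of the 13 mitochondrial mRNA genes that also occur in an annotated nuclear transcript; right, cDNAs in the 6 lists, stacked by protein and hour of LPS and not scaled to gene length. The 5 genes with at least 98.1% copied had no cDNAs, and mt-Co1 had the most with 60.

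On the minus strand, the control region had 16 cDNAs at 6 positions between chrM:16077 and chrM:16093. They were 5 for TTP without LPS, 6 for TTP at 1 h and 5 for TTP-AA at 1 h. No gene is annotated there, and the sequence was not part of the reference used. Together with mt-Tp, mt-Tc and mt-Ta, minus-strand cDNAs made up 3.23% of the mitochondrial cDNAs for TTP and 2.80% for TTP-AA without LPS, 2.30% and 3.98% at 1 h, and none was listed after 4 h.

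The mitochondrial genes were also set beside all genes with at least 10 cDNAs over both lists of a time, counted as higher in a protein where its list share was at least 2-fold larger, with counts under 3 set to 3. Without LPS, 2 of 6 mitochondrial genes, mt-Tl1 and mt-Tm, were higher in TTP, where the background was 23.3% of 632 genes, and 0 were higher in TTP-AA, where it was 28.3%. At 1 h, 7 of 16 were higher in TTP-AA (mt-Tf, mt-Tm, mt-Tc, mt-Tl2, mt-Tt, mt-Nd2 and mt-Nd5), where 66.1% of 2926 genes were. In the other direction, 4 of 16 (mt-Rnr1, mt-Rnr2, mt-Nd1 and mt-Cytb) were higher in TTP at 1 h, where 9.67% of all genes were. The calls of both rRNAs rested on the denominator. Over the 1 h totals without 3′UTR cDNAs, mt-Rnr1 made up 0.499% with TTP and 0.328% with TTP-AA. For mt-Rnr2 these shares were 0.967% and 0.872%, so neither rRNA reached 2-fold. The background was not recounted over these totals. After 4 h, 2 of 3, mt-Rnr1 and mt-Tl1, were higher in TTP, where 30% of 227 genes were, and 0 were higher in TTP-AA, where 38.8% were. A gene that reaches 10 cDNAs through 1 list, with few in the other, tends to be called towards that list. The 7 genes higher in TTP-AA at 1 h entered in this way. So did mt-Tm without LPS, mt-Nd1 and mt-Cytb at 1 h and both genes called after 4 h. These calls are therefore no test of the genes. The background genes were chosen by the same rule. The median ratio of TTP-AA to TTP at 1 h was 1.35 over the 16 mitochondrial genes and 2.66 over all genes.

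Exact positions were shared between TTP and TTP-AA in part. Without LPS, 53 positions were in both lists, or 37.6% of those with TTP and 48.6% of those with TTP-AA. They carried 56.5% of the TTP and 71.1% of the TTP-AA mitochondrial cDNAs. At 1 h, 173 were, or 56.2% and 48.7%, and they carried 81.8% of the TTP and 64.5% of the TTP-AA mitochondrial cDNAs. After 4 h, 20 were, or 23.5% and 57.1%, and they carried 19.3% of the TTP and 71.4% of the TTP-AA mitochondrial cDNAs. Allowing 15 nt raised the shares to 84.4% and 82.6% without LPS, 80.8% and 73.2% at 1 h, and 52.9% and 97.1% after 4 h. Of the 574 positions, 318 were in 1 list only and held 16.1% of the cDNAs. A further 22 were in 5 lists and held 27.7%, and 2, at nt 237 and 238 of the 16S rRNA, were in all 6.

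The AUUUA pentamer, the core of the AU-rich elements that TTP is known to bind, was searched on the crosslinked strand wholly within 20 nt. A pentamer lay near 9.29% of all positions on both strands, 16.7% of rRNA positions, 3.40% of tRNA positions and 10.7% of mRNA positions. It was near 15.6% of mitochondrial cDNAs for TTP (12.4 to 19.5) and 19.9% for TTP-AA (15.9 to 24.6) without LPS. At 1 h it was near 30.7% for TTP (28.4 to 33.1) and 23.0% for TTP-AA (20.8 to 25.3), which is a change by -7.73 points (-11.0 to -4.45). After 4 h it was near 25.4% (19.8 to 31.9) and 3.90% (1.33 to 10.8), which is a change by -21.5 points (-28.5 to -12.6). Since no tRNA cDNA had the pentamer, the comparison was repeated on rRNA cDNAs alone, chosen after the data were seen. The 1 h shares were then 31.9% for TTP and 28.6% for TTP-AA, with a difference of -3.31 points whose interval included 0 (-7.07 to 0.515), and the 4 h difference was -23.2 points (-30.5 to -14.0). With 50 nt in place of 20 nt over all mitochondrial cDNAs, the 4 h difference turned to 24.8 points (11.6 to 36.7), the 1 h difference shrank to -3.02 points and no longer left out 0 (-6.38 to 0.369), and the difference without LPS rose to 15.7 points (8.61 to 22.7). None of these differences kept both its direction and its side of 0 at the wider window. A pentamer of the 16S rRNA starts just before the cluster at nt 1527 to 1572. It lies within 50 nt of the whole cluster but not within 20 nt of nt 1554. From 20 to 50 nt, cDNAs with a pentamer rose from 3 to 48 for TTP-AA after 4 h, where this cluster held 43. For TTP the rise was 50 to 74, with 20 there. Without LPS the rise was 64 to 148 for TTP-AA (102 there) and 62 to 120 for TTP (62 there). The part of this cluster was not tested, and the intervals treat its cDNAs as independent. With 50 nt the pentamer lay near 40.9% of rRNA positions. It was then near 39.7% (TTP) and 59.2% (TTP-AA) of rRNA cDNAs without LPS, 32.2% and 35.5% at 1 h, and 40.2% and 63.2% after 4 h. The 1 h rRNA cDNAs thus lay above the share of rRNA positions with 20 nt and below it with 50 nt. Among the leading positions, the windows at nt 395 of the 12S rRNA and at nt 358, 359 and 360 of the 16S rRNA hold the pentamer, while those at nt 228, 760 and 1554 of the 16S rRNA and nt 269 of the 12S rRNA do not. The crosslinked base was U in 72.4% of mRNA cDNAs, 41.9% of rRNA cDNAs and 31.5% of tRNA cDNAs, where U makes up 30.1%, 26.4% and 31.5% of the genes. G was the crosslinked base in 5.59% of rRNA cDNAs but in 39.0% of tRNA cDNAs, 126 of them at nt 28 of mt-Tl1.

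Nuclear genes of mitochondrial RNA handling were counted separately, since their mRNAs are made in the nucleus and translated in the cytoplasm. Of 30 such genes, 13 had cDNAs in the TTP-AA list and 6 in the TTP list at 1 h, where 25.8% and 12.4% of the 21715 genes with an annotated 3′UTR had any. The 1 h TTP-AA list held 93570 cDNAs in 3′UTRs of any gene against 9561 for TTP, and how far that difference between the lists accounts for the counts of these genes was not tested. Without LPS 6 and 2 had any, where 8.18% and 8.05% of all such genes did, and after 4 h 1 and 3, where 4.29% and 3.33% did. The 3′UTR of Lars2, which charges mitochondrial leucine tRNA, held 71 and 37 cDNAs without LPS, 291 and 223 at 1 h, and 197 and 74 after 4 h in the lists of the wild type and the mutant, all within a 374-nt stretch of chromosome 9. Without Lars2, the 3′UTRs of these genes had 0 and 11 cDNAs without LPS and 7 and 99 at 1 h. After 4 h they had 0 in both lists. Lars2 thus had fewer cDNAs with TTP-AA at each time, unlike the other 3′UTRs without LPS and at 1 h. The rRNA locus on chromosome 17 also had fewer with TTP-AA at each time, with 18187 against 28298 at 1 h. The paper lists 0 AUUUA clusters for the Lars2 3′UTR. Whether the Lars2 cDNAs came from its mRNA or from another RNA of similar sequence was not tested. In the TTP-AA list at 1 h the whole-gene counts were 32 for Lrpprc, which stabilises mitochondrial mRNAs, 16 for Pnpt1, the mitochondrial polynucleotide phosphorylase, and 12 for Rexo2, an oligoribonuclease. They were 12 for Trmt10c, a subunit of mitochondrial RNase P, 11 for Tefm, a transcription elongation factor, and 11 for Grsf1, a protein of mitochondrial RNA granules. In the TTP list at 1 h, Lrpprc had 3 cDNAs, Grsf1 had 5 and the other 4 had none.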

How the data were processed

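The deposited value of a site was a score that the authors made: a whole number of unique cDNAs, signed by strand, summed over the libraries of a group. Per the study's methods and the file headers, PCR duplicates had been removed by random barcode bases, unique reads mapped to mm10 (Ensembl annotation) with Bowtie, the nucleotide before each read taken as the crosslink, and positions kept at FDR 0.05 by iCount. Reads lost to nuclear copies, or cDNAs merged because the random barcode was short, lower the counts. Both 1 h headers carried an additional region mark.

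Here chrM sites were assigned to GENCODE M21 genes (GRCm38, 1-based), with sequence taken from the transcripts and 57 positions without sequence, using Python 3.11.15, numpy 2.4.6, pandas 2.3.3, scipy 1.17.1 and matplotlib 3.10.9. List totals were 19167 to 174397 cDNAs. Intervals are 95%: Wilson for shares, exact conditional for ratios and Newcombe for differences. Code was tested on simulated data. Both rRNAs, all mRNAs, tRNAs with at least 10 cDNAs in a list and the 5 leading positions of each list were named, as were nuclear genes with at least 10 cDNAs in a list. Members and gene lists were chosen with earlier results of these data known. Other named genes, the clusters and the anticodon window were chosen after their values were seen.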

Additional observations from a re-analysis of the deposited data

How the results depend on the processing

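Of 55 alternative values, 35 stayed within the interval of the reported value, 18 lay outside it and 2 turned a direction whose interval had left out no change. These were the AUUUA difference at 4 h, 24.8 points with a 50-nt window, and the TTP-AA ratio of 1 h to 0 h, 1.36 without 3′UTR cDNAs. The 50-nt window also gave 15.7 points at 0 h, now leaving out 0, and -3.02 points at 1 h, now including it. At 1 h rRNA cDNAs alone gave -3.31 points, which likewise included 0. Without 3′UTR cDNAs the TTP-AA ratio of 4 h to 1 h was 0.26. Counting each site once gave a mitochondrial ratio of 0.35 at 1 h and 0.35 at 4 h, rRNA differences of -13.0 points at 0 h and -12.2 points at 1 h, and an AUUUA difference of -11.4 points at 4 h. Sites with at least 2 cDNAs gave a ratio of 0.64 at 1 h and an rRNA difference of 8.74 points at 0 h. A limit of 10 cDNAs per site gave 0.44 at 1 h and an rRNA difference of -4.27 points at 0 h. Without the chromosome 17 locus the 1 h ratio was 0.41, and without 3′UTR cDNAs it was 1.00. Positions shared within 15 nt were 84.4%, 80.8% and 52.9% of the TTP sites at 0, 1 and 4 h. The rRNA difference at 0 h thus depended on how sites were weighted. For the whole mitochondrial share, the ratio of TTP-AA to TTP stayed at or below 1 in each alternative. Its interval included 1 without 3′UTR cDNAs at 0 h (0.757 to 1.02) and 1 h (0.926 to 1.08). The same held at 0 h for sites with at least 2 cDNAs (0.722 to 1.003). The check for nuclear copies used annotated transcripts in place of the genome, was added after the data were seen, and moved 3 of 9 values, all at 1 h and inside their intervals. Its 9 values are all among the 35 that stayed. The check took out only 2 sites with 2 cDNAs, so it could hardly move any value. It says nothing of reads already lost to copies in the mapping.

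No paired analysis was possible because each group has 1 pooled list, and leaving out a library was not run for the same reason. A search of the whole nuclear genome for copies was not run. The smallest list, TTP-AA at 4 h, had 77 mitochondrial cDNAs in 35 sites, which limits its shares most.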
